A study of Mus with 15 samples.

Results

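The 7 genes Gbx2, Prox1, Lef1, Tcf7l2, Rora, Rorb and Foxp2 encode transcription factors that give thalamic neurons their identity, and they were chosen by name. Each gene was followed through the mm10 interval of its body plus 5 kb on each side, called its window, among 21883 protein-coding genes placed in the same way. The mark followed was mono-ubiquitinated histone H2A (H2AK119ub, termed H2Aub), mapped in mouse thalamus by ChIPmentation, an immunoprecipitation of chromatin in which a transposase adds the sequencing adapters on the beads. The question was whether factors in use in thalamic neurons still carry H2Aub, and whether cocaine or loss of Maged1 alters it at their genes.

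H2Aub is written by Polycomb repressive complex 1, whose RING1 subunits attach ubiquitin to histone H2A, and it is removed by deubiquitinases. It is known mainly from silent developmental genes, where it often lies in broad domains over CpG-rich promoters, next to the trimethylated H3K27 left by Polycomb repressive complex 2. Gbx2 is a homeobox factor of early thalamic neurons, Prox1 is a prospero-type homeobox factor, Lef1 and Tcf7l2 are HMG-box factors through which β-catenin carries the Wnt signal to DNA, Rora and Rorb are orphan nuclear receptors, and Foxp2 is a forkhead factor.

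All mice were 2 to 4 months old. The controls, labelled Maged1 WT, carried the floxed Maged1 allele with no Cre per the study's methods, and are termed WT. The conditional knockouts, termed cKO, carried the floxed allele and Cre driven by the vGluT2 promoter, so that Maged1 was lost from cells expressing Vglut2 and kept in others. The study's methods describe hemizygous males. After 3 days of saline injections, mice of either genotype were given intraperitoneal cocaine at 20 mg/kg, or the saline vehicle, on 5 days. Each library came from 3 to 4 pooled thalami per the labels, and the methods give a lower minimum. The WT libraries numbered 3 for each treatment, and the cKO libraries numbered 2 for cocaine and 3 for saline. Each had a peak list of its own, and 4 libraries of input chromatin were the control for peak calling.

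The lists hold peaks and no reads, so the depth behind each list is unknown, and a window without a peak is a window in which none was called, not a window shown to lack H2Aub. Neither the deletion of Maged1 nor the tissue can be checked from peaks, because no expression is measured by them. The thalamus was taken in bulk, and a mark on more cells cannot be told apart from a stronger mark per cell. The lists of cKO cocaine replicate 1 and cKO saline replicate 1 stood apart, with 54653 and 80713 peaks against 7271 to 26055 in the other 9 lists. Their highest fold enrichments over input, as the peak caller gave them, were 31.2 and 52.6, against 5.98 to 12.2 in the others. A peak was present in the windows of 50.4 and 58.9% of coding genes in these lists, and of 12.6 to 27.8% in the other 9. The main values that rest on these libraries are therefore given with and without them.

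The 7 genes differed widely among themselves. Gbx2, Lef1 and Foxp2 had a peak in all 11 libraries, Tcf7l2 in 9, Prox1 in 8, Rora in 7, and Rorb in 1. Among all coding genes, 6.76% had a peak in all 11 libraries, and among the 2758 genes with a window of 100 kb or more 11.9% did. The windows run from 13.2 kb (Gbx2) to 745 kb (Rora), and a long window meets a peak more often by its length alone. Levels were therefore compared between genes as covered base pairs per kb of window. By that measure Gbx2 stood at 684 ± 127 bp per kb (mean ± SD, n = 11 libraries), Lef1 at 38.5 ± 15.4 and Prox1 at 20.9 ± 26. Below them were Tcf7l2 at 6.18 ± 9.34, Rora at 3.43 ± 6.62, Foxp2 at 3.02 ± 1.78 and Rorb at 0.383 ± 1.27. Gbx2 lay above every other gene in every library. From Lef1 downwards, the means ± SD of neighbours in this order overlapped. Without the cKO replicates 1 the means were 710 for Gbx2, 35 for Lef1, 9.6 for Prox1, 2.5 for Tcf7l2, 2.42 for Foxp2, 0.674 for Rora and 0 for Rorb, with Foxp2 then above Rora.

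The same coverage over all coding windows combined was 2.97 to 15.1 bp per kb in a library. Relative to it, the median over the 11 libraries was 105 times for Gbx2, 5.38 times for Lef1 and 1.65 times for Prox1. It was 0.44 times for Tcf7l2, 0.405 times for Foxp2, 0.108 times for Rora and 0 for Rorb. For Gbx2 and Lef1 this median was above 1 under every peak threshold and window tried, and for Prox1 it was 0 at q at most 0.01, with equal numbers of peaks per list and over the gene body alone. Without the cKO replicates 1 the median ratios were 105, 5.63 and 1.59 for Gbx2, Lef1 and Prox1, and 0.21, 0.405, 0.039 and 0 for Tcf7l2, Foxp2, Rora and Rorb. A ratio below 1 to the combined windows need not be a place below the typical gene. By mean covered bp per kb over the 11 libraries, Tcf7l2 ranked 5041, Rora 6686, Foxp2 7029 and Rorb 13157 among 21883 coding genes. These ranks include the cKO replicates 1.

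**Figure D1:**
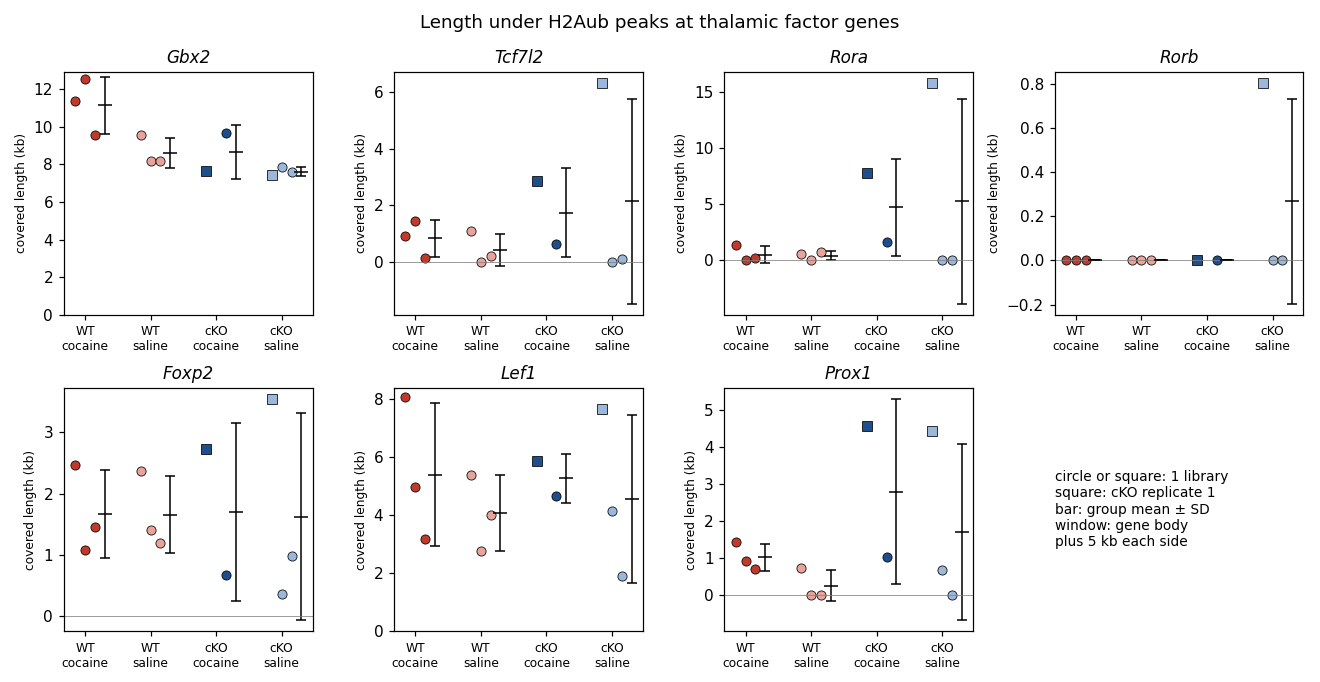
Length of each gene's window that lies under H2Aub peaks, in kb, by group, with a panel and a linear axis of its own for each gene. Points are libraries, squares are the cKO replicates 1, and bars are the group mean ± SD (n = 3, 3, 2 and 3), which can reach below 0 where libraries without a peak stand beside a high one. Gbx2 was covered over 7.43 to 12.5 kb in every library, whereas the Rora, Tcf7l2 and Prox1 values were highest in the squares.

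Gbx2, on chr1:89927962-89931176 (gene ID 14472), carried more H2Aub peak length per kb than any of the other 6 genes. In WT mice the peaks covered 11349, 12532 and 9544 bp of its window of 13215 bp after cocaine, and 9546, 8158 and 8164 bp after saline. In cKO mice they covered 7659 and 9690 bp after cocaine, and 7428, 7856 and 7567 bp after saline. The mean share of the window in WT mice was 84.3 ± 11.4% (SD, n = 3) after cocaine and 65.2 ± 6.05% (n = 3) after saline. In cKO mice it was 65.6 ± 10.9% (n = 2) and 57.6 ± 1.65% (n = 3). More than 50% of the window was thus covered in every library, which held for 75 of 21883 coding genes (0.343%). By mean covered bp per kb Gbx2 ranked 85 among all coding genes.

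The 55 peaks at Gbx2 merged into a single region, chr1:89921243-89938573, 17331 bp long, which ran past both ends of the gene and past the window. The widest peak was 12610 bp, in WT cocaine replicate 2, which ranked 46 by width among the 26055 peaks of that list. The widest Gbx2 peak of a library stood at the 97.4th to 99.8th percentile of peak width in its own list. The highest fold enrichment per library was 4.02 to 4.43 in the 9 libraries other than the cKO replicates 1, and 5.3 and 9.86 in those. The body of the gene was covered over its full 3215 bp in 3 libraries and over 73.1 to 90.9% in 7, whereas in cKO saline replicate 2 only 948 bp (29.5%) of it lay under peaks. A further coding gene, LOC102637806, begins 4113 bp from the lower-coordinate end of Gbx2, inside the window, and peaks over it cannot be assigned to either gene.

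Prox1, on chr1:190118035-190170827 (gene ID 19130), is the other homeobox factor, and most of its peaks lay at its higher-coordinate end, 19 of 26, with 1 at the lower-coordinate end and 6 between. In WT mice they covered 1413, 915 and 687 bp after cocaine and 732, 0 and 0 bp after saline. In cKO mice they covered 4555 and 1016 bp after cocaine and 4420, 664 and 0 bp after saline. Length was highest in the cKO replicates 1, and the WT groups overlapped. All 8 libraries with a peak had one at the higher-coordinate end, from 2 kb inside to 5 kb outside the gene. The most shared region, chr1:190171374-190172409, lies just outside that end and was called in 7 libraries. Among WT libraries it was present in 3 of 3 after cocaine and 0 of 3 after saline, and among cKO libraries in 2 of 2 and 2 of 3. The region was picked as the most shared, and how often regions elsewhere split in this way was not counted. The only WT saline library with a Prox1 peak had 2, a little farther out. The long non-coding gene Prox1os overlaps this end, and its signal cannot be separated from that of Prox1. In the 9 libraries other than the cKO replicates 1 the fold enrichment of Prox1 peaks was 2.93 to 3.83.

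Lef1, on chr3:131110297-131224357 (gene ID 16842), carried H2Aub over its lower-coordinate end in 11 of 11 libraries. In WT mice the covered length was 8065, 4965 and 3176 bp after cocaine and 5397, 2773 and 4009 bp after saline. In cKO mice it was 5873 and 4675 bp after cocaine, and 7655, 4131 and 1887 bp after saline. All 4 groups overlapped. The peaks at that end joined into the region chr3:131105037-131113361, 8325 bp long, which WT cocaine replicate 1 held as a single peak. The long non-coding gene Gm36603 overlaps the outer part of this region, and peaks over it cannot be assigned to either gene. In the 9 libraries other than the cKO replicates 1, 22 of 24 Lef1 peaks touched the stretch from 5 kb outside to 2 kb inside that end and the other 2 began 2187 and 2301 bp inside it, so that nearly the entire 114 kb body was free of called peaks. A gene-end peak in all 11 libraries was found for 5.04% of coding genes.

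Tcf7l2, on chr19:55741797-55933659 (gene ID 21416), the HMG-box partner of Lef1 that remains strongly expressed in adult thalamus, showed short and scattered peaks. In WT mice its covered length was 922, 1442 and 145 bp after cocaine and 1077, 0 and 227 bp after saline. In cKO mice it was 2854 and 622 bp after cocaine and 6319, 0 and 113 bp after saline. The cKO replicates 1 were the highest of all libraries. Its 53 peaks had a median width of 204 bp and fell on 37 separate regions, of which 24 were seen in 1 library only. The most shared region, chr19:55743627-55744601, lies 1.8 kb inside the lower-coordinate end and was called in 5 libraries, 2 WT cocaine, 2 cKO cocaine and 1 cKO saline, with fold enrichments of 3.05 to 3.96. No WT saline library held it, and how often this occurs for regions elsewhere was not counted.

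Of the 53 Tcf7l2 peaks, 36 came from the cKO replicates 1, and 10 regions were called in both of these lists and in no other. Without these lists 17 peaks remained, of 97 to 705 bp.

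Rora, on chr9:68653404-69388246 (gene ID 19883), has the longest window, and its H2Aub peaks came largely from 2 libraries. In WT mice they covered 1362, 0 and 200 bp after cocaine and 572, 0 and 712 bp after saline. In cKO mice they covered 7771 and 1671 bp after cocaine, and 15785, 0 and 0 bp after saline. Of its 100 peaks, 86 belonged to the cKO replicates 1, with fold enrichments of up to 16.4, whereas the 14 peaks of the other 9 libraries reached 3.96. The region most shared among the other 9 libraries, chr9:69314811-69316172, lies 661.4 kb into the gene and was called in 4 of them and in cKO cocaine replicate 1. None of these 14 peaks touched either end of the gene.

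**Figure D2:**
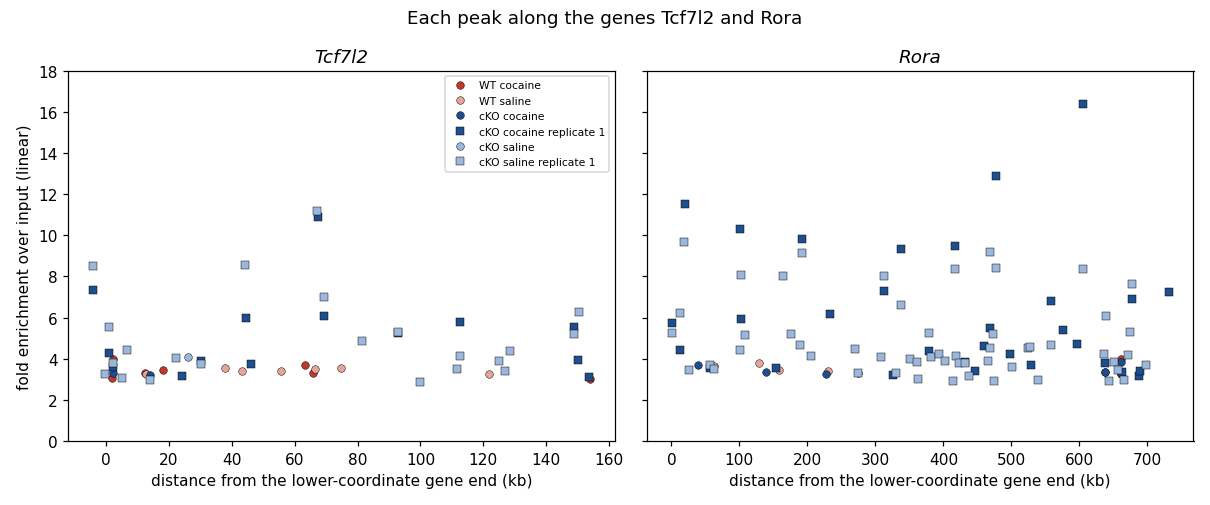
Fold enrichment over input (linear axis) of every H2Aub peak in the windows of Tcf7l2 and Rora against its distance in kb from the lower-coordinate end of the gene. Points are peaks, squares mark the cKO replicates 1, and no point other than a square lies above 4.1 in either panel.

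Rorb, on chr19:18930609-19111196 (gene ID 225998), the paralogue of Rora, had no peak in 10 of 11 libraries. In cKO saline replicate 1 it had 2 peaks of 174 and 629 bp, which together covered 803 bp. A window without a peak in the 9 libraries other than the cKO replicates 1 was common, at 60.2% of coding genes and 37.5% of those with a window of 100 kb or more.

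Foxp2, on chr6:14901349-15441977 (gene ID 114142), carried few peaks, but these recurred at the same place. In WT mice they covered 2472, 1089 and 1452 bp after cocaine and 2367, 1416 and 1196 bp after saline. In cKO mice they covered 2725 and 672 bp after cocaine and 3539, 362 and 980 bp after saline. All 4 groups overlapped, and the highest and the lowest value both came from cKO saline. The region chr6:14897679-14901692, 4014 bp long and almost entirely outside the lower-coordinate end, was called in 10 libraries, 8 of them among the 9 other than the cKO replicates 1. A neighbouring region inside that end, chr6:14902176-14903338, was called in 6 libraries. A region deep in the gene, chr6:15184410-15185651, 283.1 kb from that end, was called in 3 libraries and held the only Foxp2 peak of cKO saline replicate 3. No library had a peak at the higher-coordinate end.

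A peak at a gene end was found in 11 libraries for Lef1, 10 for Foxp2 and 8 for Prox1. Gbx2 had one in 11, but the stretches at its ends together fill its window, so that any peak there counts as a gene-end peak. Among all coding genes, 11.7% had a gene-end peak in at least 8 libraries, a number set at the Prox1 count after seeing it. Tcf7l2 had one at an end in 3 libraries, Rora in 2 and Rorb in 1. The gene table holds no strand, so that an end here is the end with the lower or the higher coordinate, not a promoter.

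**Figure D3:**
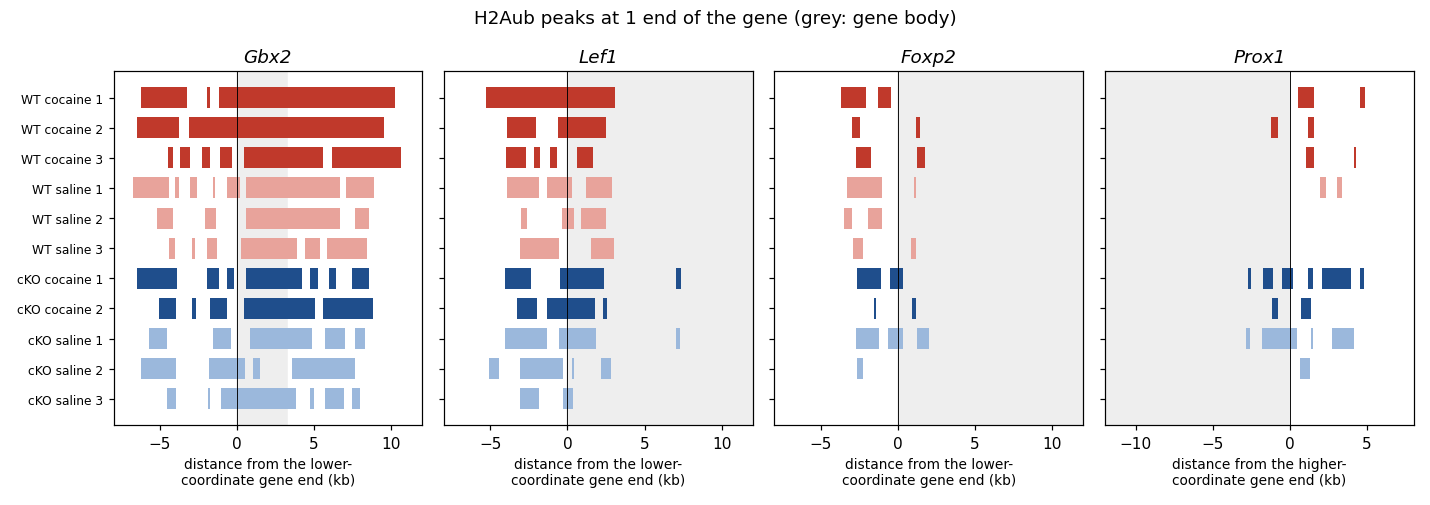
H2Aub peaks of each library, drawn to scale as bars against distance in kb from the gene end at which they recurred, with the gene body in grey. The bars lie over and around Gbx2 in all 11 libraries, with gaps inside the body in several of them, recur at Lef1 in all 11 and at Foxp2 in 10, and are shorter and on both sides of the end at Prox1, where WT saline replicates 2 and 3 and cKO saline replicate 3 have none.

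The genes were then counted by group. A peak in at least 2 libraries was present for 6 of the 7 genes in WT cocaine, where 22.8% of all coding genes had one, and for 5 of 7 in WT saline, where 17.8% did. In cKO mice the count was 6 of 7 after cocaine (background 20.7%) and 5 of 7 after saline (background 18.7%). Among coding genes with a window of 100 kb or more, the corresponding backgrounds were 39.3, 32.8, 38.5 and 34.3%. Prox1 was the gene present in WT cocaine and missing in WT saline, and Rora was missing in cKO saline. Without the replicate 1 the cKO saline count was 3, namely Gbx2, Lef1 and Foxp2, while the cKO cocaine group is then left with 1 library. These backgrounds share the libraries with the genes counted and describe them only.

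A stricter count, chosen after seeing the data, asked for bases covered at the same position in at least 2 libraries of a group. The study likewise keeps peaks common to at least 2 replicates as H2Aub elements, but the lists used here reach a q of 0.0997, past the threshold stated for its peak calls. By it, 6 of the 7 genes were marked after cocaine in WT mice (17.9% of coding genes) and 3 after saline (12.8%). In cKO mice the counts were 6 after cocaine (12.9%) and 3 after saline (11.3%). For coding genes with a window of 100 kb or more these backgrounds were 29, 21.5, 20.7 and 18.5%. Gbx2, Lef1 and Foxp2 were marked in all 4 groups, Foxp2 in cKO saline only through a stretch shared by replicates 1 and 2. Tcf7l2, Rora and Prox1 were marked in both cocaine groups and in neither saline group. The share of all coding genes with this joint pattern was not counted, and the WT cocaine lists covered more of the genome than the WT saline lists. The shared stretch was 15174 bp at Gbx2, 5749 bp at Lef1, 1147 bp at Foxp2, 548 bp at Prox1, 200 bp at Rora and 1 bp at Tcf7l2 in WT cocaine. Unlike covered length, it was counted over whole peaks that touch the window, so that at Gbx2 it ran past the window of 13215 bp. For Tcf7l2 the WT cocaine count therefore rests on a single base, and for Rora and Prox1 on short stretches. In cKO cocaine the stretch was 354 bp at Tcf7l2, 65 bp at Rora and 231 bp at Prox1, and this group had 2 libraries, of which replicate 1 is one that stood apart. The difference in these counts between cocaine and saline was not tested.

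In WT mice, Gbx2 had more covered length after cocaine, with a mean of 11142 ± 1505 bp (SD, n = 3) against 8623 ± 800 bp (n = 3) after saline. The difference of 2519 bp did not pass the two-sided exact permutation test (p = 0.2, smallest possible p 0.1, adjusted p = 0.792 over 8198 genes). The lowest cocaine library (9544 bp) and the highest saline library (9546 bp) overlapped by 2 bp. Over the gene body alone the Gbx2 difference was 290 bp (exact permutation p = 0.3), and with 10 kb flanks it was 4513 bp (p = 0.2). Prox1 had 1005 ± 371 bp after cocaine and 244 ± 423 bp after saline, a difference of 761 bp (exact permutation p = 0.2, adjusted p = 0.792). Lef1 differed by 1342 bp (exact permutation p = 0.6), Tcf7l2 by 402 bp (p = 0.6), Rora by 92.7 bp (p = 0.9) and Foxp2 by 11.3 bp (p = 1.0), and Rorb had no peak in either group. The groups did not separate for any of the 7 genes, whereas all cocaine libraries exceeded all saline libraries for 15.5% of the coding genes tested, and the converse held for 0.293%. With peaks at q at most 0.05 alone, 2 of the 7 genes separated with cocaine above saline, Gbx2 by 2667 bp and Prox1 by 813 bp (exact permutation p = 0.1 for both, the smallest possible), beside 15.9% of the coding genes tested.

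The WT cocaine lists covered more of the genome, 10.4 to 17.2 Mb, than the WT saline lists, 5.55 to 11.1 Mb. As a share of the covered length of its own list, the Gbx2 difference between cocaine and saline took the opposite sign, at -296 bp per Mb covered (exact permutation p = 0.2). Lef1 took it as well, at -119 bp per Mb (exact permutation p = 0.1, the smallest possible), and so did Foxp2 and Rora. With equal numbers of peaks per list, the Gbx2 (2260 bp), Lef1 (871 bp) and Rora (33 bp) differences kept their sign, whereas Prox1 (-20.7 bp) and Foxp2 (-50 bp) turned.

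In cKO mice, Gbx2 had 8674 ± 1436 bp (SD, n = 2) after cocaine and 7617 ± 218 bp (n = 3) after saline, a difference of 1058 bp (exact permutation p = 0.2, adjusted p = 1.0 over 14137 genes, smallest possible p 0.1). It turned to -596 bp with equal numbers of peaks per list and to -408 bp per Mb as a share of the list, and was 42 bp without cKO cocaine replicate 2 and 2073 bp without cKO cocaine replicate 1. For Prox1 the difference was 1091 bp (exact permutation p = 0.5) and for Lef1 716 bp (p = 0.8). It was 71.5 bp for Foxp2, -406 bp for Tcf7l2, -541 bp for Rora and -268 bp for Rorb (exact permutation p = 1.0 for each). Again none of the 7 genes had groups that did not overlap, against 3.9% of genes higher and 0.0778% lower after cocaine. Without both replicates 1 the Tcf7l2 difference became 566 bp and the Rora difference 1671 bp, with 1 cocaine library left. The difference between the cocaine responses of cKO and WT mice was tested with treatment permuted inside each genotype. It had an unadjusted p under 0.05 for 0 of the 7 genes and for 0.173% of the 14472 genes tested.

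Between genotypes, Gbx2 was the only one of the 7 genes with less covered length in cKO at an unadjusted p under 0.05. Averaged over the treatments the difference of cKO from WT was -1736 bp (exact permutation within treatment, p = 0.045), and the adjusted p over 14472 genes was 0.595. A p under 0.05 was reached by 1.89% of the genes tested, and no gene passed the adjusted threshold. In saline-treated mice all 3 cKO libraries (7428 to 7856 bp) lay below all 3 WT libraries (8158 to 9546 bp), which occurred for 0.607% of genes, with 0.54% in the other direction. The groups no longer separated at q at most 0.01, over the gene body alone, with 10 kb flanks or as a share of the list. After cocaine the genotypes overlapped, because cKO cocaine replicate 2 (9690 bp) exceeded WT cocaine replicate 3 (9544 bp). Without cKO cocaine replicate 1 the difference was -1229 bp (exact permutation p = 0.15), without both replicates 1 it was -1181 bp (p = 0.15), and as a share of the covered length of the list it was -130 bp per Mb (p = 0.615).

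Rora and Prox1 had higher means in cKO, by 4517 and 1616 bp (exact permutation p = 0.09 for both, adjusted p = 0.595). Tcf7l2 was 1306 bp higher (p = 0.325, exact permutation), while Lef1 (185 bp, p = 0.895), Rorb (134 bp, p = 1.0) and Foxp2 (-2.58 bp, p = 1.0) differed by little beside the spread of their libraries. Both cKO cocaine libraries exceeded all 3 WT cocaine libraries at Rora, as they did for 6.59% of genes, with 3.25% in the other direction. The cKO means of Rora, Prox1 and Tcf7l2 rested on the replicates 1. Without these libraries the Rora difference was 361 bp, the Prox1 difference 49.5 bp and the Tcf7l2 difference -296 bp, with 1 cKO cocaine library left. The Foxp2 difference was then -994 bp. With equal numbers of peaks per list the Foxp2 difference was -1114 bp (exact permutation p = 0.03, adjusted p = 0.617), whereas at q at most 0.01 it was 450 bp (p = 0.61).

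Other gene lists placed these values. All 12 of the other developmental factors of the thalamus and diencephalon (Lhx2, Lhx9, Olig3, Neurog1, Neurog2, Dbx1, Barhl2, Sox14, Gata2, Gata3, Tal1 and Nkx2-2), most of them active in progenitors or in other lineages, had a peak in all 11 libraries, with a median of 464 bp per kb. The 6 homeobox genes of the GABAergic lineage (Dlx1, Dlx2, Dlx5, Dlx6, Gsx1 and Gsx2) also had one in all 11, with a median of 799 bp per kb. The median over the 7 identity factors was 6.18 bp per kb, and over all coding genes 0.898. Without the cKO replicates 1 it was 2.5 for the identity factors, 0 for all coding genes, 484 for the developmental and 832 for the GABA-lineage genes. Gbx2 alone among the 7 lay within the range of the first list, 339 to 821 bp per kb. In covered length not divided by the window, the Lef1 mean of 4782 bp also lay within that list, whose means ran from 3970 to 18513 bp.

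The 8 paralogues of the 7 factors had a median of 17.1 bp per kb. Gbx1 (157 bp per kb), Foxp4 (81.1) and Tcf7 (53.3) had a peak in all 11 libraries, while 2 of the 8 had none in the 9 libraries other than the cKO replicates 1. Of 6 genes listed as effectors of relay neurons, whose expression was not measured here, Slc17a7, which encodes VGLUT1, the vesicular glutamate transporter best known from cortex, reached 200 bp per kb and Cacna1g, which encodes a T-type calcium channel, 55.2, with a peak in all 11 libraries. The median of that list was 16.2 bp per kb. Among 8 genes of the Wnt pathway, in which Lef1 and Tcf7l2 act, the target gene Sp5 (384 bp per kb) and the feedback inhibitor Nkd1 (19.8) had a peak in all 11 libraries. Apc, a scaffold of the β-catenin destruction complex, had none in any. The median of the Wnt list was 4.62 bp per kb, and 4 of its 8 genes had no peak outside the cKO replicates 1. Without these lists the medians were 10.6 for the paralogues, 13.3 for the relay list and 1.49 for the Wnt list.

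In WT saline, a peak in at least 2 libraries was present for 5 of the 7 identity factors, 5 of 8 paralogues, 12 of 12 other developmental factors, 6 of 6 GABA-lineage genes, 4 of 6 relay effectors and 2 of 8 Wnt genes. Markers of other cell types of the thalamus carried H2Aub as well. The median was 3.71 bp per kb for 4 oligodendrocyte genes, 11.6 for 4 astrocyte genes, 3.46 for 4 microglial genes and 31.4 for 3 endothelial genes, and 1.92, 10.9, 1.51 and 29.1 without the cKO replicates 1. The highest was Cldn5, an endothelial tight-junction gene named after its value was seen, at 111 bp per kb with a peak in 10 libraries. Of these 15 genes only Flt1, an endothelial receptor for VEGF, had a peak in all 11 libraries. In WT mice the summed length at the endothelial genes was 5272 to 12466 bp after cocaine and 4761 to 6505 bp after saline, and that at the oligodendrocyte genes was 2029 to 3243 bp and 0 to 1979 bp. It was 808 to 5778 bp and 543 to 2383 bp at the astrocyte genes, and 0 to 921 bp and 128 to 280 bp at the microglial genes. Peaks do not measure how many cells of a type a sample held, and the part of cell makeup in the values above was not tested.

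**Figure D4:**
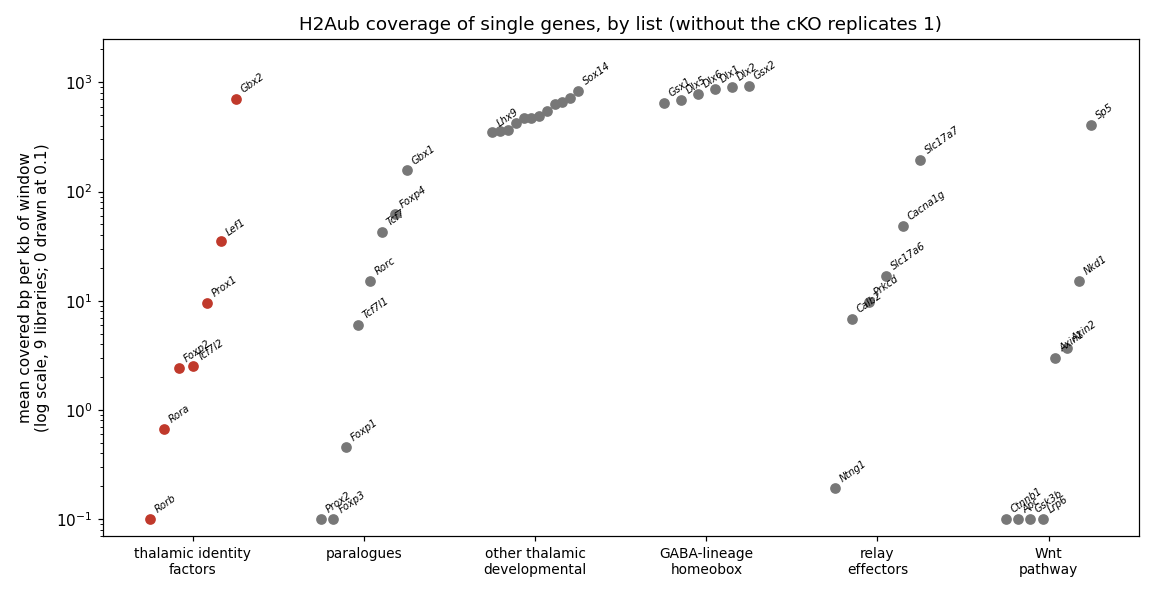
Covered length per kb of window, averaged without the cKO replicates 1 (9 libraries), on a log axis with genes without a peak drawn at 0.1, for the 7 identity factors (red) and 5 other gene lists (grey). Points are genes, and in the developmental list only the lowest and the highest gene are named. Gbx2 sits level with the developmental and GABA-lineage genes, and the other 6 factors sit at 35 bp per kb or below.

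Genes whose share of the list's covered length varied most like that of a factor were sought among the 4633 coding genes with a peak in at least 6 libraries, over the 11 libraries, whose lists differ widely in length. For Gbx2 these were Pax2 (Pearson r = 0.992) and Mnx1 (r = 0.985), both homeobox or paired-box developmental genes with a peak in all 11 libraries. For Lef1 they were Tfap2b (r = 0.884) and Cnpy1 (r = 0.882), and for Foxp2 H2-Q1 (r = 0.874) and Mgarp (r = 0.862). For Prox1 they were Pcnx (r = 0.936) and Hdac7 (r = 0.928). For Tcf7l2 they were Cux2 (r = 0.985) and Rnf165 (r = 0.957). Without the cKO replicates 1 the r values of these 10 pairs were 0.763 to 0.99. Rorb had too few libraries with a peak.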

How the data were processed

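H2Aub ChIPmentation libraries of mouse thalamus were analysed from 1 deposited broad-peak list per library. Per the labels and the study's methods, the authors trimmed adapters with Cutadapt, mapped read pairs to mm10 with Bowtie2 (2.3.4.1), kept well-mapped pairs with SAMtools and called broad peaks with MACS2 (2.1.1.20160309.3) against input, without pooling replicates. Each deposited list gives peak coordinates, a score, the fold enrichment over input as a linear ratio, and the −log10 of the p-value and of the q-value. The lists reach a q of 0.0997, and all their peaks were used. Read totals are not in the lists, so depth was not corrected for and no counting interval can be given.

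Genes came from the RefSeq table of GRCm38.p6, which has mm10 coordinates and no strand, and all 7 symbols matched. Covered length was the number of bases of a window (body plus 5 kb each side) under merged peaks. A peak was placed at a gene end if it touched the stretch from 5 kb outside to 2 kb inside it. Libraries were the replicates. The study mentions batches, but the labels do not assign libraries to them, and p-values measure the spread between these libraries. Group means were compared by a two-sided exact permutation test on every coding gene with a peak in the libraries compared, with Benjamini-Hochberg adjustment over all of them, and genotype was permuted within treatment. The smallest possible p was 0.1 within a genotype and 0.005 between genotypes, so that no comparison of cocaine with saline within a genotype could pass 0.05. The code was tested on simulated data. Analyses used Python 3.11.15, numpy 2.4.6, pandas 2.3.3 and scipy 1.17.1.

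The 7 genes and the comparison lists were chosen with earlier results of these data known. Named were the 7 genes, for each factor with a peak in at least 6 libraries the 2 genes most like it by Pearson's r (those for Rora are not reported here), and list genes with a peak in the most libraries or in none. Alternatives were q at most 0.05 or 0.01, 7271 peaks of highest −log10 q per list, no flank or 10 kb, at least 100 bp of overlap, the share of the list's covered length, other presence rules, each library left out, both cKO replicates 1 left out, and a replicate block. No sequences were analysed here.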

Additional observations from a re-analysis of the deposited data

How the results depend on the processing

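No adjusted p of the 20 gene-level differences passed 0.05 in any of 383 alternative values. For cocaine minus saline this was fixed beforehand, since no p could be below 0.1. Between genotypes the smallest possible p was 0.005 with all libraries. An adjusted p of 0.05 over 14472 genes then needed many genes at that smallest p together, so that the absence of calls says little. The sign was kept throughout for 6 differences, and 49 values, in the other 14, turned it, for causes not tested.

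Counts of the 7 genes with a peak in at least 2 libraries (6 WT cocaine, 5 WT saline, 6 cKO cocaine, 5 cKO saline) became 3 in cKO saline at q at most 0.05, and 3, 1, 3 and 2 at q at most 0.01. With equal numbers of peaks both WT counts were 3. A peak in all libraries, or the same region in 2 libraries, gave 3 in WT saline and 3 in cKO saline, and so did cKO saline without both replicates 1. Leaving out a library gave 5 to 6, 3 to 5, 6 and 3 to 5. With 1 cKO cocaine library left, no count over at least 2 libraries was possible. Shares of all coding genes per group were counted only for the main setting and for the same region in 2 libraries. The other counts have no background beside them, and whether they follow it was not tested. The WT saline counts of 5 paralogues, 4 relay effectors and 2 Wnt genes became 3, 2 and 1 at q at most 0.01, 3 paralogues with equal peaks, 3 paralogues and 2 relay effectors with a peak in all libraries, and 3 to 5 and 2 to 4 without a library.

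Counts of the 7 genes with groups apart are given with the share of all coding genes tested that were apart in that direction and setting. WT cocaine above WT saline (0) became 2 at q at most 0.05 (15.9%), 1 at q at most 0.01 (12.1%), and 0 to 2 without a library, with 2 without WT cocaine replicate 3 (31.7%) or WT saline replicate 1 (30.1%). The converse (0) became 1 as a share of the list (2.48%). cKO cocaine above cKO saline (0) became 1 with 10 kb flanks (3.73%), 5 without both replicates 1 (67.2%, 1 cocaine library against 2), and 0 to 4 without a library, with 4 without cKO saline replicate 1 (28.5%). cKO saline below WT saline (1) was 0 at q at most 0.01 (0.388%), with no flank (0.796%), with 10 kb flanks (0.397%) and as a share of the list (2.07%), 2 with equal peaks (5.14%) or without both replicates 1 (10.1%), and 1 to 2 without a library, with 2 without cKO saline replicate 1 (10.1%). cKO cocaine above WT cocaine (1) was 0 at q at most 0.05 (5.12%) and 0.01 (2.99%), 2 with equal peaks (2.55%) or as a share (7.21%), and 1 to 4 without a library, with 4 without cKO cocaine replicate 2 (68.4%, 1 cKO library) and 2 without WT cocaine replicate 1 (10.1%). The converse (0) was 1 with no flank (3.47%), with 10 kb flanks (2.89%) and without both replicates 1 (23.3%), and 0 to 1 without a library, with 1 without WT cocaine replicate 3 (8.59%), cKO cocaine replicate 1 (23.3%) or cKO cocaine replicate 2 (6.08%).

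Signs turned as follows. For cocaine minus saline in WT, equal peaks gave -50 bp (Foxp2) and -20.7 bp (Prox1), and shares gave -296 (Gbx2), -12.6 (Rora), -84.9 (Foxp2) and -119 (Lef1) bp per Mb. For cocaine minus saline in cKO, equal peaks gave -596 (Gbx2), 129 (Tcf7l2) and 275 bp (Rora), no flank -246 bp (Foxp2), shares -408 (Gbx2), 10 (Tcf7l2), 67.7 (Rora), -41.1 (Foxp2) and -70.8 (Lef1) bp per Mb, and leaving out both replicates 1 566 (Tcf7l2) and 1671 bp (Rora). For cKO minus WT, Foxp2 was 450 bp at q at most 0.01, 396 bp with no flank and 18.1 bp with 10 kb flanks, and Lef1 -2112 bp with equal peaks, -42.7 bp per Mb as a share and -889 bp without both replicates 1, which also gave -296 bp for Tcf7l2.

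Without a library, cocaine minus saline in WT ranged from -328 to 353 bp (Rora) and -389 to 365 bp (Foxp2), and in cKO from -1522 to 1682 bp (Tcf7l2), -3591 to 4721 bp (Rora), -955 to 1098 bp (Foxp2), -619 to 2265 bp (Lef1) and -679 to 2860 bp (Prox1). cKO minus WT ranged from -516 to 511 bp (Foxp2), -589 to 853 bp (Lef1) and -2244 to -1229 bp (Gbx2), whose p was 0.0125 to 0.15 in these exact permutation tests. Ranges over 1.5 times from the full value with the sign kept were, for cocaine minus saline in WT, 10.8 (without WT cocaine replicate 1) to 2455 bp (Lef1) and 98.8 (without WT cocaine replicate 2) to 747 bp (Tcf7l2), both highest without WT cocaine replicate 3, and in cKO 42 to 2073 bp (Gbx2). For cKO minus WT they were 262 (without cKO saline replicate 1) to 1864 bp (Tcf7l2), 731 (without cKO cocaine replicate 1) to 2500 bp (Prox1, without cKO cocaine replicate 2) and 1886 (without cKO saline replicate 1) to 6042 bp (Rora).

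With a replicate block (same-numbered libraries paired), the WT Gbx2 difference stayed at 2519 bp (exact sign-flip p = 0.25), and in cKO Foxp2 turned to -252 bp and Lef1 to -619 bp. With 3 and 2 pairs the smallest possible sign-flip p is 0.25 and 0.5, so that no call could be made. Same-numbered WT libraries did not deviate together (r = 0.00843, -0.00893 and 0.0206 across genes), and the 2 cKO pairs had r = 0.26 and 0.22, too few pairs to read the numbers as a pairing. With 2 cKO cocaine libraries the deviations from their mean are opposite, so that the crossed pairs gave r = -0.26 and -0.22. The 2 cKO values are therefore not separate, and the 0.26 joins the 2 lists that stood apart.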

Other observations

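The peaks of the cKO replicates 1 at the 7 genes were largely places that no other library shared. All peaks merged into 144 regions, of which 107 were called in these lists alone and 33 in both of them and in no other. In Lef1, 9 of 10 regions were of this kind and lay inside the gene, away from the end that all 11 libraries shared, with fold enrichments of up to 9.12 against 3.48 to 4.49 in the other 9 libraries. In Foxp2 a region of 223 bp, 235 kb from the lower-coordinate end, reached 8.47 and 13.8, the highest enrichments of that gene.

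At Gbx2 the same lists called no region of their own. Their covered lengths there, 7659 and 7428 bp, were the lowest of their groups, although the lists were the longest.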
